A study of Mus musculus with 2 samples.

Results

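The Klf family is a group of zinc finger transcription factors, and 10 of its genes, *Klf2*, *Klf3*, *Klf4*, *Klf6*, *Klf7*, *Klf9*, *Klf10*, *Klf11*, *Klf12* and *Klf13*, were followed here in early B lineage cells of the mouse. They belong to the family by name and are 10 of its 17 genes listed here, the other 7 being described more briefly below, and they make up 10 of the 20250 named protein-coding genes in the deposited expression table. Each is represented by 1 RefSeq coding transcript, and each estimate carried the status OK in both libraries. RNA was measured in 2 libraries, 1 from *Ebf1* -/- pre-pro-B cells and 1 from *Rag2* -/- pro-B cells, by strand-specific sequencing of total RNA after depletion of ribosomal RNA. The pre-pro-B cells lacked *Ebf1*, a factor needed for B lineage specification, came from livers of female embryos and were cultured with Il-7, Scf and Flt3l. The pro-B cells lacked *Rag2*, which is needed to rearrange immunoglobulin genes, came from bone marrow of adult males and were cultured with Il-7 alone. Both had a C57BL/6 background, both were grown on OP-9 stromal cells, and Il-7 was given at 5 ng/mL to both, whereas Scf and Flt3l were each at 10 ng/mL. Stage, genotype, sex, age, tissue and cytokines therefore changed together and cannot be told apart.

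Klf factors bind GC-rich and CACCC elements through 3 zinc fingers at the carboxyl end, and differ in the amino-terminal part, which recruits coactivators or corepressors. *Klf2*, *Klf4*, *Klf6* and *Klf7* are known mainly as activators, *Klf3*, *Klf8* and *Klf12* recruit the corepressor Ctbp, and *Klf9*, *Klf10*, *Klf11* and *Klf13* recruit the corepressor Sin3a. In lymphocytes the family is known for the control of quiescence, through *Klf2* and *Klf4*, and of migration, through *Klf2*, and *Klf3* is known to be needed for normal formation of B cell subsets.

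Levels are given as FPKM, the number of fragments scaled to the length of the transcript and to the depth of the library, which allows a comparison between genes because it is per length. With each FPKM comes the 95% interval that the authors' program (Cuffdiff) gave for that library. Its dispersion was blind, that is, estimated from both libraries taken as a single group. Differences between the libraries can therefore enter its width. This interval covers counting and model error, and does not measure the spread between cultures or animals of the same group. With 1 library per group no difference below could be tested or has a replicate check. Changes are given on the scale log2((pro-B FPKM + 1)/(pre-pro-B FPKM + 1)), where a negative value is lower in pro-B cells, and the 2-fold mark on this scale was used for counting. Adding 1 understates the change of low genes, so the plain FPKM ratio is also given.

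The 250 bases before the transcription start are shown for the 3 genes that lay farthest from an equal level, *Klf3*, *Klf12* and *Klf2*, since their starts differ in base composition and in the elements that Klf and Mef2 factors are known to bind. The sequences are those of RefSeq (GRCm38.p6), placed on mm9 by exact match, and 9 of the 10 genes matched a window. Capitals mark matches on either strand to the GC box (GGGCGG), to CACCC and, in *Klf2* only, to the Mef2 motif (CTA, any 4 bases, TAG). In *Klf2* the CACCC match is left in lower case. Adjoining or overlapping matches run together. The *Klf2* window is chr8:74842711-74842960 (plus strand), the *Klf3* window is chr5:65194510-65194759 (plus strand) and the *Klf12* window is chr14:100549016-100549265 (minus strand).
Klf2: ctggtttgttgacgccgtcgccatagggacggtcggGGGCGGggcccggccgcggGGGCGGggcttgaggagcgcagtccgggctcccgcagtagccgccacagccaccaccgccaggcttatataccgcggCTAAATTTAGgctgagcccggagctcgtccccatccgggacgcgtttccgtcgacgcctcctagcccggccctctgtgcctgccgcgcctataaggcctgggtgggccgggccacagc
Klf3: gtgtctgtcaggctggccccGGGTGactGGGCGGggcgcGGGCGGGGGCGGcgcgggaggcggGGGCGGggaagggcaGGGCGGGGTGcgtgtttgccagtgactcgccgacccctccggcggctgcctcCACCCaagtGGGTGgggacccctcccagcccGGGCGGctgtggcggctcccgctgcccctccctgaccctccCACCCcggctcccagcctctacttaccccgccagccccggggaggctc
Klf12: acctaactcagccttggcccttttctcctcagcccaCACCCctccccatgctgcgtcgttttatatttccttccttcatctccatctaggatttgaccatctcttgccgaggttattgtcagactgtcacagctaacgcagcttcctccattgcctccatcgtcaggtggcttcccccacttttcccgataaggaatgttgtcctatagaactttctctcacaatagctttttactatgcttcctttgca

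The GC content was 78.4% in the *Klf3* window, 71.2% in the *Klf2* window and 48.0% in the *Klf12* window. The median was 71.2% over the 9 windows of the family and 52.4% over all 32851 windows of the same length. The *Klf3* window held 6 GC boxes and 5 CACCC matches, of which 1 GC box and 1 CACCC match overlapped by a base, whereas the *Klf12* window held no GC box and 1 CACCC match, 214 to 210 bases before the start. The *Klf2* window held 2 GC boxes, 1 CACCC match and 1 Mef2 match, the last between 118 and 109 bases before the start. Across the family, a GC box was present in 7 of 9 windows, against 32.7% of all windows, and CACCC in 6 of 9, against 52% of all windows. The Mef2 motif was found in 1 of 9, that of *Klf2*, against 3.2% of all windows, and the Ebf1 motif (TCCC, any 2 bases, GGGA) in 0 of 9, against 0.779%. These are matches of letters in a short window, not binding sites.

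As a check of the labels, *Ebf1* was listed at an FPKM of 64.0 in the *Ebf1* -/- library and 273 in the *Rag2* -/- library, and *Rag2* at 34.5 and 22.9, so each was lower, but present, in the library named for its loss, with overlapping intervals. Which exons the null alleles lack is not given in the sources used here. All 9 B lineage markers were higher in pro-B cells, with summed FPKM of 11.4 in pre-pro-B against 2915 in pro-B cells. Numerically lower in pro-B cells were 5 of 6 progenitor markers (sums of 1003 and 3.82, *Gata2* at 0 in both), 7 of 9 myeloid markers (65.2 and 6.63, *Elane* and *S100a9* at 0 in both), 8 of 8 T and NK markers (82.5 and 0.295) and 3 of 6 erythroid and megakaryocyte markers (1.48 and 0.198, *Hba-a1* and *Pf4* at 0 in both). *Tcf7* (38.9 and 0.118) and *Cd3g* (36.8 and 0.0351) made up most of the T and NK sum in pre-pro-B cells. *Mpo* (35.7 and 0.122) and *Itgam* (19.7 and 6.40) made up most of the myeloid sum there. Of the markers that reached 1 FPKM, 5 of 5 myeloid and 5 of 5 T and NK were past 2-fold lower, beside 19.1% of all genes. All of these except *Itgam* reached 1 FPKM only in pre-pro-B cells, so the filter itself favoured this direction and the counts are no separate support. The 15 stromal markers summed to 23.1 in pre-pro-B against 21.1 in pro-B cells. Of these, 11 were numerically higher in pro-B cells and *Dcn* and *Postn* were listed at 0 in both. *Pdgfrb*, at 15.9 and 0.377, made up most of the first sum, and *Fn1* was at 1.16 and 5.16, *Cxcl12* at 0.618 and 2.92, and *Col1a2* at 0.707 and 2.82. From which cells these transcripts came, and what part other cells have in the Klf levels, was not tested.

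The summed FPKM of the 10 genes was 144.0 in pre-pro-B against 74.6 in pro-B cells, 1.93-fold lower. Most of this difference lay in a single gene, *Klf3*, since without it the sums were 96.1 and 74.3, 1.29-fold lower. By gene, 4 of 10 (*Klf2*, *Klf3*, *Klf4* and *Klf7*) were past 2-fold lower in pro-B cells, and among all 10528 genes that reached 1 FPKM in a library 19.1% were. In the other direction 1 of 10, *Klf12*, was past 2-fold higher, against 12.2% of all genes. The remaining 5 genes lay within 2-fold. The median log2 change was -0.68 over the family and -0.14 over all genes. All 10 genes passed the FPKM minimum, but *Klf3* and *Klf4* passed it only in pre-pro-B cells and *Klf12* only in pro-B cells. The Cuffdiff intervals of the 2 libraries did not overlap for 1 of 10 transcripts, *Klf3*, which was lower in pro-B cells, and among 12875 coding transcripts 3.01% were lower and 1.40% higher without overlap. Because these are bulk samples, fewer cells that express a gene and less of its RNA per cell cannot be told apart.

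**Figure D1:**
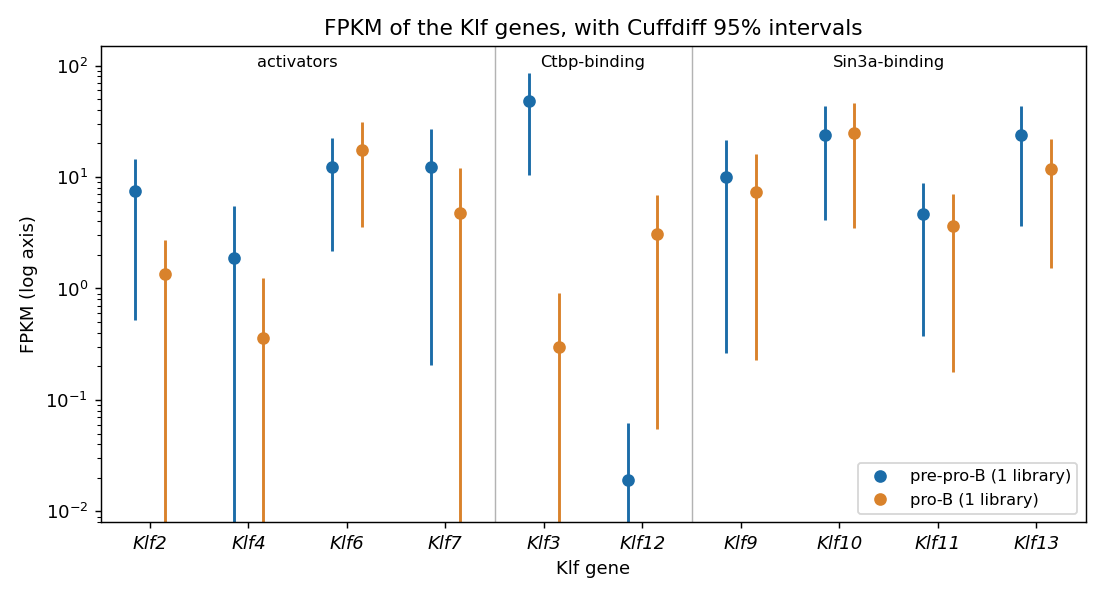
FPKM of the 10 Klf genes (log axis) in the pre-pro-B and the pro-B library; points are the deposited estimates and vertical lines the Cuffdiff 95% intervals, which run off the lower edge where they reach 0 or lie below 0.008. Only the *Klf3* intervals are apart, at 10.4 to 85.6 in pre-pro-B against 0 to 0.905 in pro-B cells, and those of *Klf12* overlap between 0.0552 and 0.0620.

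The Ctbp-binding repressors held the highest and the lowest change of the family. *Klf3*, a repressor that binds CACCC elements, was at 48.0 FPKM (interval 10.4 to 85.6) in pre-pro-B cells against 0.298 (0 to 0.905) in pro-B cells. It was the most abundant of the 10 genes in pre-pro-B cells and the least abundant in pro-B cells, 161-fold lower by plain ratio and -5.24 on the log2 scale. Only 70 of the 10528 genes, 0.665%, had a lower log2 change. At about 90000000 reads per library, its pro-B level corresponds to about 62.0 fragments on the 2314-base transcript (NM_008453, chr5:65194762-65221368, plus strand of mm9). The pro-B value was thus low, above the 3 fragments chosen here as a floor, but with an interval that reached 0.

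*Klf12*, a repressor first known for acting on *Tfap2a*, had the opposite order, at 0.0193 FPKM (0 to 0.0620) in pre-pro-B cells against 3.07 (0.0552 to 6.84) in pro-B cells. This is 159-fold higher by plain ratio, but 2.00 on the log2 scale with 1 added, since both levels are low. The pre-pro-B value corresponds to about 9.96 fragments on the 5731-base transcript (NM_010636, chr14:100269862-100549015, minus strand), and the intervals overlapped narrowly. Among all genes, 4.32% had a higher log2 change. *Klf8*, the remaining member of this subgroup and not among the 10 genes, was at 0.740 FPKM (0.00886 to 1.46) in pre-pro-B against 3.94 (0.372 to 7.49) in pro-B cells, 5.32-fold higher and with overlapping intervals.

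The 3 Ctbp-binding factors together summed to 48.7 FPKM in pre-pro-B against 7.30 in pro-B cells. *Klf3* made up 98.4% of that sum in pre-pro-B cells against 4.08% in pro-B cells. In pro-B cells, *Klf8* made up 53.9% and *Klf12* 42.0%, where they had been 1.52% and 0.0396%. The subgroup was thus almost entirely *Klf3* transcript in the first library and *Klf8* and *Klf12* transcript in the second, at a lower summed level.

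**Figure D2:**
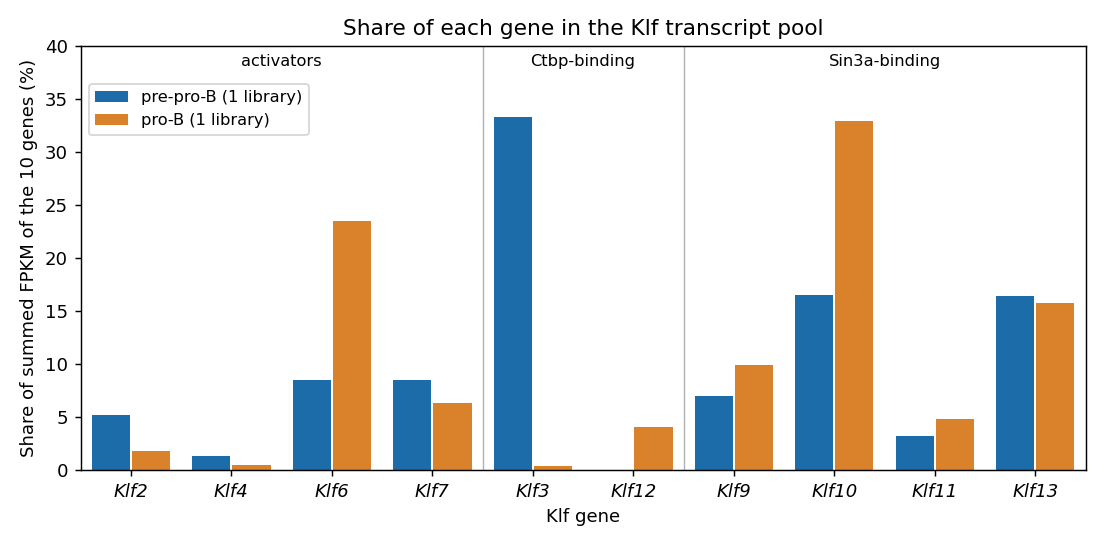
Share of each of the 10 genes in their summed FPKM (percent), in the pre-pro-B and the pro-B library, ordered by subgroup; bars have no error because there are no replicates. *Klf3* is the largest share in pre-pro-B cells, 33.3%, but holds 0.399% in pro-B cells, where *Klf10*, 33.0%, and *Klf6*, 23.5%, are the largest.

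Among the activators, 3 of 4 were past 2-fold lower in pro-B cells and the remaining 1 lay within the mark, where 19.1% of all genes were lower. With a pseudocount of 5 in place of 1, none of the 4 was past the mark, where 9.46% of all genes were lower. *Klf2*, which keeps lymphocytes quiescent and directs their traffic, was at 7.55 FPKM (0.522 to 14.6) in pre-pro-B against 1.35 (0 to 2.70) in pro-B cells, 5.61-fold lower, or -1.87 on the log2 scale. *Klf4*, known from reprogramming to pluripotency and as a brake on B cell division, was at 1.89 (0 to 5.53) and 0.358 (0 to 1.23), 5.28-fold lower, or -1.09. Although their plain ratios were alike, *Klf4* was the lower in both libraries, with about 518 and 98.1 fragments, and its interval reached 0 in both. *Klf7*, known for its part in neuronal outgrowth, was at 12.3 (0.207 to 26.8) and 4.71 (0 to 11.97), 2.60-fold lower, or -1.21.

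*Klf6*, a widely expressed activator first found through its binding to GC-rich promoter elements, was at 12.2 FPKM (2.16 to 22.2) in pre-pro-B against 17.5 (3.59 to 31.4) in pro-B cells. It was thus 1.43-fold higher in pro-B cells, 0.49 on the log2 scale and within overlapping intervals. *Klf6* alone made up 8.47% of the family sum in pre-pro-B against 23.5% in pro-B cells. The 4 activators summed to 33.9 and 23.9, so that their share of the family sum was 23.5% in pre-pro-B against 32.1% in pro-B cells. In order, *Klf7* and *Klf6* were close in pre-pro-B cells (12.3 and 12.2), whereas in pro-B cells *Klf6* was above *Klf7*, with overlapping intervals.

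The transcript models bear on these values. *Klf2* (NM_008452) lies at chr8:74842961-74845553 (plus strand) and is 1816 bases long, *Klf4* (NM_010637) at chr4:55540009-55545347 (minus strand) with 3044 bases, and *Klf6* (NM_011803) at chr13:5860735-5869639 (plus strand) with 4217 bases. The *Klf7* model (NM_033563, chr1:64082247-64167963, minus strand) has 1334 bases, and the GENCODE gene runs 6226 bases past its 3′ end, so that fragments beyond that end were not part of its FPKM. Within its locus lies *Gm13748*, on the opposite strand, which strand-specific counting keeps apart.

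The Sin3a-binding factors lay within 2-fold, 4 of 4, where 19.1% of all genes were past it lower and 12.2% past it higher. Most genes thus lay within the mark, so this count does not set the subgroup apart, and *Klf13* passed the mark under other settings given below. *Klf10*, an early gene of the response to Tgf-beta, was at 23.8 FPKM (4.14 to 43.3) in pre-pro-B against 24.6 (3.46 to 45.9) in pro-B cells, a ratio of 1.04 and 0.05 on the log2 scale. This small difference changed sign under 1 other setting, TPM scaling, which gave -0.04, and stayed positive, up to 0.14, under the others tried. TPM scaling lowers the plain pro-B over pre-pro-B ratio of every gene by the same factor. On the log2 scale with 1 added it did not lower every gene, since *Klf12* went from 2.00 to 3.16. *Klf10* was second in the pre-pro-B order and first in the pro-B order.

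*Klf13*, known for driving *Ccl5* in T cells, was at 23.7 FPKM (3.65 to 43.7) in pre-pro-B against 11.8 (1.53 to 22.1) in pro-B cells. It stood just inside the 2-fold mark at -0.95 on the log2 scale and just past it by plain ratio, 2.01-fold lower. Of the 10 genes, *Klf13* was the nearest to the mark on the inside and *Klf4*, at -1.09, the nearest on the outside.

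*Klf9*, which glucocorticoid and thyroid hormone induce, was at 10.1 FPKM (0.265 to 21.4) in pre-pro-B against 7.37 (0.229 to 16.0) in pro-B cells, 1.37-fold lower. *Klf11*, another early gene of the response to Tgf-beta, was at 4.63 (0.377 to 8.88) and 3.61 (0.179 to 7.03), 1.29-fold lower. For these genes the difference was small beside the width of the intervals. The 4 factors summed to 62.2 in pre-pro-B against 47.3 in pro-B cells, so that they held 43.2% of the family sum in the first library and 63.4% in the second.

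The models of this subgroup were single as well. *Klf9* (NM_010638, 3263 bases) lies at chr19:23215716-23241401 (plus strand) and holds *Mir1192* on the same strand, and *Klf11* (NM_178357, 3982 bases) at chr12:25336236-25347647 (plus strand). *Klf13* (NM_021366, 6396 bases) lies at chr7:71031237-71083801 (minus strand) and *Klf10* (NM_013692, 3045 bases) at chr15:38224168-38230462 (minus strand), where the GENCODE gene runs 2949 bases past the 3′ end of the model. A further Sin3a-binding factor that is not among the 10 genes, *Klf16*, was at 4.75 and 2.10, 2.26-fold lower by plain ratio and -0.89 on the log2 scale.

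**Figure D3:**
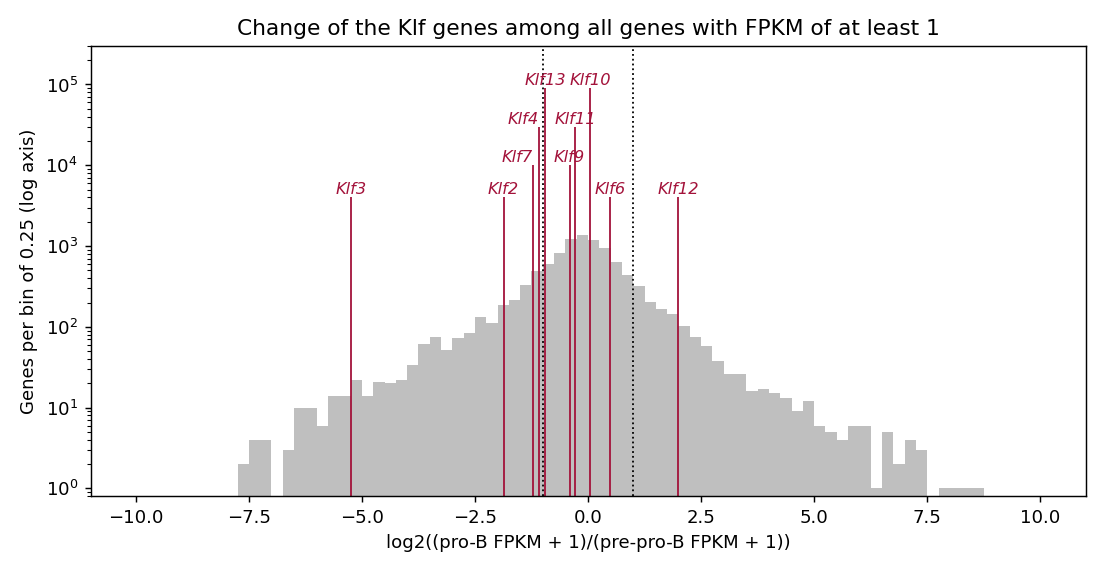
Log2 change, pro-B over pre-pro-B with 1 added to each FPKM, of the 10528 genes that reached 1 FPKM in a library (grey, genes per bin of 0.25, log axis), with the 10 Klf genes as red lines and the 2-fold marks as dotted lines. *Klf3*, at -5.24, lies in the lower tail, *Klf2*, *Klf7* and *Klf4* between it and the lower mark, and *Klf12*, at 2.00, past the upper mark.

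In order of level, pre-pro-B cells had *Klf3*, *Klf10*, *Klf13*, *Klf7*, *Klf6*, *Klf9*, *Klf2*, *Klf11*, *Klf4* and *Klf12*, from high to low. Pro-B cells had *Klf10*, *Klf6*, *Klf13*, *Klf9*, *Klf7*, *Klf11*, *Klf12*, *Klf2*, *Klf4* and *Klf3*. No pair of neighbours in either order had intervals that were apart, and of the 45 pairs of genes 10 were apart in pre-pro-B against 8 in pro-B cells. Placed among all 20250 genes, 92.6% were lower than *Klf3* in pre-pro-B cells against 49.0% in pro-B cells, whereas for *Klf12* the shares were 35.6% and 59.7%. *Klf10* was above 83.5% of genes in pre-pro-B cells and above 84.7% in pro-B cells.

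Of the 7 other Klf genes, 2, *Klf8* and *Klf16*, reached an FPKM of 1 in a library. *Klf1*, the erythroid member, was at 0.196 and 0.145, *Klf5* was at 0.623 in pre-pro-B cells and listed at 0 in pro-B cells, and *Klf14*, *Klf15* and *Klf17* were listed at 0 in both. Among the 9 Sp factors, which share the type of zinc finger, 5 reached this level, 1 of them past 2-fold lower and 0 past 2-fold higher, beside 19.1% and 12.2% of all genes. *Sp3* was at 134 FPKM in pre-pro-B against 153 in pro-B cells, *Sp1* at 60.5 and 51.1, *Sp4* at 20.7 and 21.3, and *Sp2* at 4.46 and 3.49. The estimates of *Sp3* and *Sp1* were thus above that of every Klf gene in both libraries. The intervals of *Sp1* and of the most abundant *Sp3* transcript overlapped those of *Klf3* in pre-pro-B and of *Klf10* in pro-B cells. *Sp7*, a factor of bone formation, was at 5.53 (0.104 to 13.4) and 0.0174 (0 to 0.0692), the latter about 3.58 fragments.

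The partners through which Klf factors act were measured alongside. Of 12 cofactors, 2 were past 2-fold lower and 0 past 2-fold higher, a share close to the 19.1% of all genes that were lower, and the median log2 change was -0.25, beside -0.14 over all genes. The corepressors of the subgroups were present at both stages, with *Ctbp1* at 90.1 FPKM in pre-pro-B against 75.4 in pro-B cells, *Ctbp2* at 11.0 and 7.52, *Sin3a* at 61.0 and 57.2, and *Sin3b* at 48.9 and 50.2. The histone deacetylase *Hdac2* was at 70.8 and 62.8, whereas *Hdac1* was at 11.2 and 1.53, 7.32-fold lower. *Fhl3*, a LIM protein known to bind *Klf3*, was at 9.02 and 2.06, 4.38-fold lower. The intervals of *Hdac1* and those of *Fhl3* overlapped between the libraries.

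*Klf2* is known to be induced through the kinase Erk5 and Mef2 factors and through Foxo1. A list of 12 regulators known to act on Klf2 or Klf4 was counted, with the Erk5 cascade, Mef2 and Foxo factors and ubiquitin ligases. Of these, 3 were past 2-fold lower and 2 past 2-fold higher, with a median of -0.45. Over all genes the shares were 19.1% and 12.2%, so these counts do not set the list apart. *Mef2c* was at 209 FPKM in pre-pro-B against 31.7 in pro-B cells, 6.61-fold lower, and *Mef2a* at 147 and 18.8, 7.80-fold lower. *Mef2d* had the opposite order, at 36.3 and 84.2, 2.32-fold higher. The intervals of *Mef2a*, of *Mef2d* and of the most abundant *Mef2c* transcript overlapped between the libraries. Mef2 factors are known to bind the motif matched in the *Klf2* window above. Whether any of the genes of this list acts on *Klf2* or *Klf4* in these cells was not tested. *Foxo1* was at 1.78 and 53.3, 30.0-fold higher with intervals apart, and *Foxo3* was at 23.2 and 10.2, 2.29-fold lower with overlapping intervals. The kinases of the cascade lay within 2-fold, among them *Map3k2* at 23.3 and 16.5, *Map3k3* at 17.5 and 12.8, and *Map2k5* at 17.0 and 15.4, and the ubiquitin ligase gene *Fbxw7* was at 16.7 and 14.0.

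Of 10 genes reported as targets of Klf2 or Klf4 in lymphocytes, 6 were past 2-fold lower and 1 past 2-fold higher in pro-B cells, beside 19.1% and 12.2% of all genes, and the median was -1.21. Of the lower genes, *S1pr1*, *Itgb7*, *Il6ra* and *Ccnd1* passed the FPKM minimum only in pre-pro-B cells, so the filter favoured this direction for them. The list was not split by whether Klf2 or Klf4 is reported to raise or lower each gene, so the counts and the median have no single expected direction. With a pseudocount of 5, 3 of the 10 were lower and 1 higher, beside 9.46% and 7.46% of all genes at that setting. *S1pr1*, the receptor that lets lymphocytes leave tissues, was at 6.78 FPKM in pre-pro-B against 0.0144 in pro-B cells, the latter about 3.92 fragments, with intervals apart. *Itgb7*, an integrin of gut homing, was at 37.2 and 0.141, 264-fold lower with intervals apart. For both genes the pro-B level was far below the pre-pro-B level, and low in absolute terms.

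Among the other targets, the activation marker *Cd69* was at 91.7 and 21.0 FPKM (4.38-fold lower), the chemokine receptor gene *Ccr7* at 13.1 and 4.80 (2.73-fold lower) and *Il6ra* at 3.07 and 0.0218, about 6.57 fragments. The cell cycle genes were mixed. *Cdkn1b*, an inhibitor of cyclin-dependent kinases, was at 33.7 and 112, 3.32-fold higher, and *Cdkn1a* at 8.56 and 14.2, 1.66-fold higher. *Ccnd1* was at 1.62 and 0.184, 8.81-fold lower, and *Ccnd2* at 34.9 and 26.2, 1.33-fold lower. For every gene from *Cd69* to *Ccnd2* here the intervals overlapped, taken for *Cdkn1a* on its most abundant transcript.

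**Figure D4:**
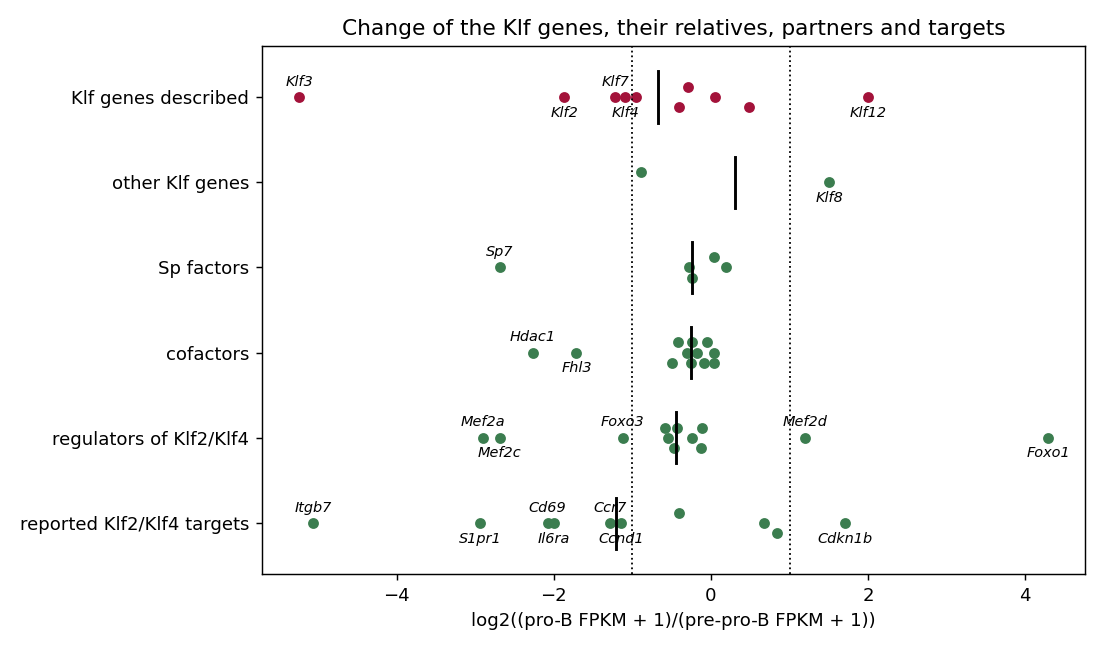
Log2 change, pro-B over pre-pro-B with 1 added to each FPKM, of each gene that reached 1 FPKM in a library, for the 10 Klf genes (red) and 5 lists around them (green); black bars are list medians, dotted lines the 2-fold marks, and genes past a mark are named. The cofactors centre on -0.25 and the targets on -1.21, with *Itgb7* at -5.07 and *Cdkn1b* at 1.70.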

How the data were processed

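The 2 libraries held about 90000000 single-end reads of 97 bp each, per the labels. The authors trimmed reads by quality, aligned them to mm9 with TopHat (version 1.5 in the submitters' processing notes) with up to 20 alignments per read, and estimated deposited FPKM per RefSeq transcript with Cuffdiff 2.1.1 (classic FPKM, blind dispersion, multi-read and bias correction, minimum alignment count of 10). A further deposited table holds the authors' own comparisons (fold changes, p- and q-values) and was not used. No read counts were analysed here, so fragments are approximations from FPKM, transcript length and 90000000 reads, and cover counting error only.

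From the FPKM, coding transcripts were named through their RefSeq identifiers (413 of 26968 without a name were left out), summed per gene and compared as log2 ratios with a pseudocount of 1, for genes that reached 1 FPKM in a library. With 1 library per group nothing was tested. Named beside the 10 genes were, of each related list, genes past 2-fold and up to 4 more of highest FPKM, and up to 4 of highest FPKM of the marker and immediate early lists, plus *Ebf1* and *Rag2*. Single values of 2 genes of these lists are not reported here. The members and lists were chosen with earlier results of these data known. Gene extents are from GENCODE on mm9. Python 3.11.15, pandas 2.3.3, numpy 2.4.6 and matplotlib 3.10.9 were used, and the scripts were tested on simulated data. Alternatives changed the pseudocount, the FPKM minimum, the scaling, the transcripts used and the fold.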

Additional observations from a re-analysis of the deposited data

How the results depend on the processing

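No gene of the family past 2-fold changed direction under any of the alternatives. With a pseudocount of 5, 1 Klf gene (*Klf3*) was past 2-fold lower and 0 higher, and the lists of relatives, partners and targets had 7 genes lower in place of 12. At that setting 9.46% of all genes were lower and 7.46% higher, in place of 19.1% and 12.2%. With an FPKM minimum of 5, 7 Klf genes remained in the count and 0 were higher, since *Klf12* was no longer counted, and at 3-fold 2 were lower, *Klf2* and *Klf3*. *Klf13* joined the lower genes, making 5, with a pseudocount of 0.1, with none, with TPM scaling and at 1.5-fold. The log2 change ranged from -7.33 to -3.32 for *Klf3*, 0.68 to 7.31 for *Klf12*, -2.49 to -0.98 for *Klf2* and -2.40 to -0.36 for *Klf4*. Over all genes, 2013 were lower and 1284 higher, 996 and 785 with a pseudocount of 5, 3136 and 2114 at 1.5-fold, and 1116 and 693 at 3-fold. No paired analysis was possible because each group has 1 library and nothing was tested. Among the 10 Klf genes, the fewest fragments, about 9.96, lay behind *Klf12* in pre-pro-B cells.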

Other observations

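Several Klf genes are known to respond within minutes to growth factors and to handling of cells, so 14 immediate early genes were read in the same libraries. Of these, 11 reached an FPKM of 1 in a library, 2 of them past 2-fold lower and 3 past 2-fold higher in pro-B cells, beside 19.1% and 12.2% of all genes, with a median log2 change of 0.12. The 14 genes summed to 139 FPKM in pre-pro-B against 137 in pro-B cells. The most abundant were *Btg2*, an inhibitor of division, at 57.6 and 62.7, *Zfp36*, which promotes decay of cytokine transcripts, at 30.5 and 26.6, *Egr1* at 11.8 and 12.9, and *Junb* at 12.7 and 7.33. Chosen after their values were seen, *Jun* was at 1.30 and 6.80 and *Nr4a1* at 5.37 and 0.803, both with overlapping intervals.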
